A study of Mus musculus with 3 samples.

Results

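The p53 protein, a transcription factor that halts the cell cycle or triggers cell death after damage, is held in check by a small set of partner proteins, and 10 genes of that set were followed here: the p53 gene itself, its neighbour Wrap53, and the regulators Mdm2, Mdm4, Usp7, Ppm1d, Hipk2, Atm, Chek2 and Prmt5. All probe sets that the platform annotation assigns to these genes were taken, which gave 30 of the 45101 probe sets on the array, for 9 of the 10 genes, out of 18194 genes named on it. None of the 30 was shared with another gene in the annotation. The p53 gene's own level was not analysed here.

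Signals came from 3 Affymetrix arrays of mouse LSK cells, the fraction of marrow cells without lineage markers and with Sca-1 and Kit that holds blood stem cells and multipotent progenitors. The arrays were, in turn, the double knockout p53 -/- Mef -/- (DKO), p53 -/- (p53 KO) and wild type (WT), with 1 array each. Mef is an ETS transcription factor encoded by Elf4. The labels state no treatment, and the strain, the age, the design of the deleted alleles and the number of animals per array are not in the labels either. With 1 array per genotype no difference has an error or a test, and each one describes those arrays only.

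Mdm2 is the main ubiquitin ligase of p53, and Mdm4 is its relative that binds p53 and blocks it without being a strong ligase on its own. Usp7 removes ubiquitin from both p53 and Mdm2. Atm and Chek2 form the kinase relay that runs from a DNA break to p53, Hipk2 is a kinase that phosphorylates p53 to favour cell death, and Ppm1d is the phosphatase that reverses damage signalling. Prmt5 methylates arginines on p53 and on splicing proteins. Mdm2 and Ppm1d are also transcribed under p53, which closes negative feedback loops, and p53 in LSK cells is known for keeping stem cells out of the cycle.

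Facts of the arrays bear on each value below. Signals were read against a floor of 110.4, which is the median signal of the series, and a signal below it was set to it. Signals at or over the floor came from 53.8% of probe sets on DKO, 48.9% on p53 KO and 47.3% on WT. Elf4, the other targeted gene, had 151 on the array labelled DKO, 182 on p53 KO and 57.4 on WT by one probe set, and 129, 173 and 74.3 by the other. It was thus lowest not on the array labelled DKO but on WT, where both probe sets were below the floor. The position of the Elf4 probe sets in the deleted allele was not analysed here. Every direction between the arrays, that of p53 KO against WT included, rests on their labels.

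Markers of several cell types differed between the arrays as well. The 8 LSK markers named on the array, Kit among them, were at or over the floor on each array, with summed signals of 28169 on DKO, 14887 on p53 KO and 17248 on WT, while Sca-1's gene was not among the named probe sets. Summed signals of 9 granulocyte and monocyte markers were 83543 on DKO, 168667 on p53 KO and 90440 on WT, those of 9 B cell markers 3383, 8072 and 2140, and those of 9 megakaryocyte markers 8592, 13939 and 5042, in the same order of arrays. The 8 erythroid markers summed to 17565 on DKO, 82884.5 on p53 KO and 60961 on WT, with Hba-a1 below the floor on every array. In each of those 4 lists 7 to 9 markers reached the floor on every array. Of 8 T and NK cell markers 2, 4 and 2 reached the floor, with sums of 3037, 2434 and 1618 and with Cd3e, Cd3g, Cd4 and Ncr1 below it throughout. Of 10 stroma and endothelium markers 5, 5 and 4 did, with sums of 3595, 1717 and 1595 and with Col1a1, Col3a1, Cdh5 and Lepr below it throughout. The p53 KO array thus had the highest sums for 4 blood lineages, but a sum follows its brightest markers. The erythroid markers Klf1, Gata1, Ermap and Epor were highest on WT. Elane of the granulocyte list and Itga2b, Selp, Gp1bb and Gp5 of the megakaryocyte list were highest on DKO, and Mpo was nearly equal on DKO and p53 KO. The part of these lineages in the differences below was not tested. Fewer cells of a type and less RNA per cell cannot be told apart in such samples.

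Of the 30 probe sets, 26 reached the floor on at least 1 array and 23 on every array. The p53 KO array was the brightest for 15 of the 26 (57.7%), against 27.3% of all 26317 measured probe sets. The DKO array was the brightest for 3 (11.5%), against 45.5% over all, and the WT array for 8 (30.8%), against 27.2%. All but 1 of the 15 belonged to Usp7, Hipk2, Mdm2 and Ppm1d, whereas every probe set of Atm, Prmt5 and Chek2 was brightest on WT. Probe sets of the same gene are not independent of each other.

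**Figure D1:**
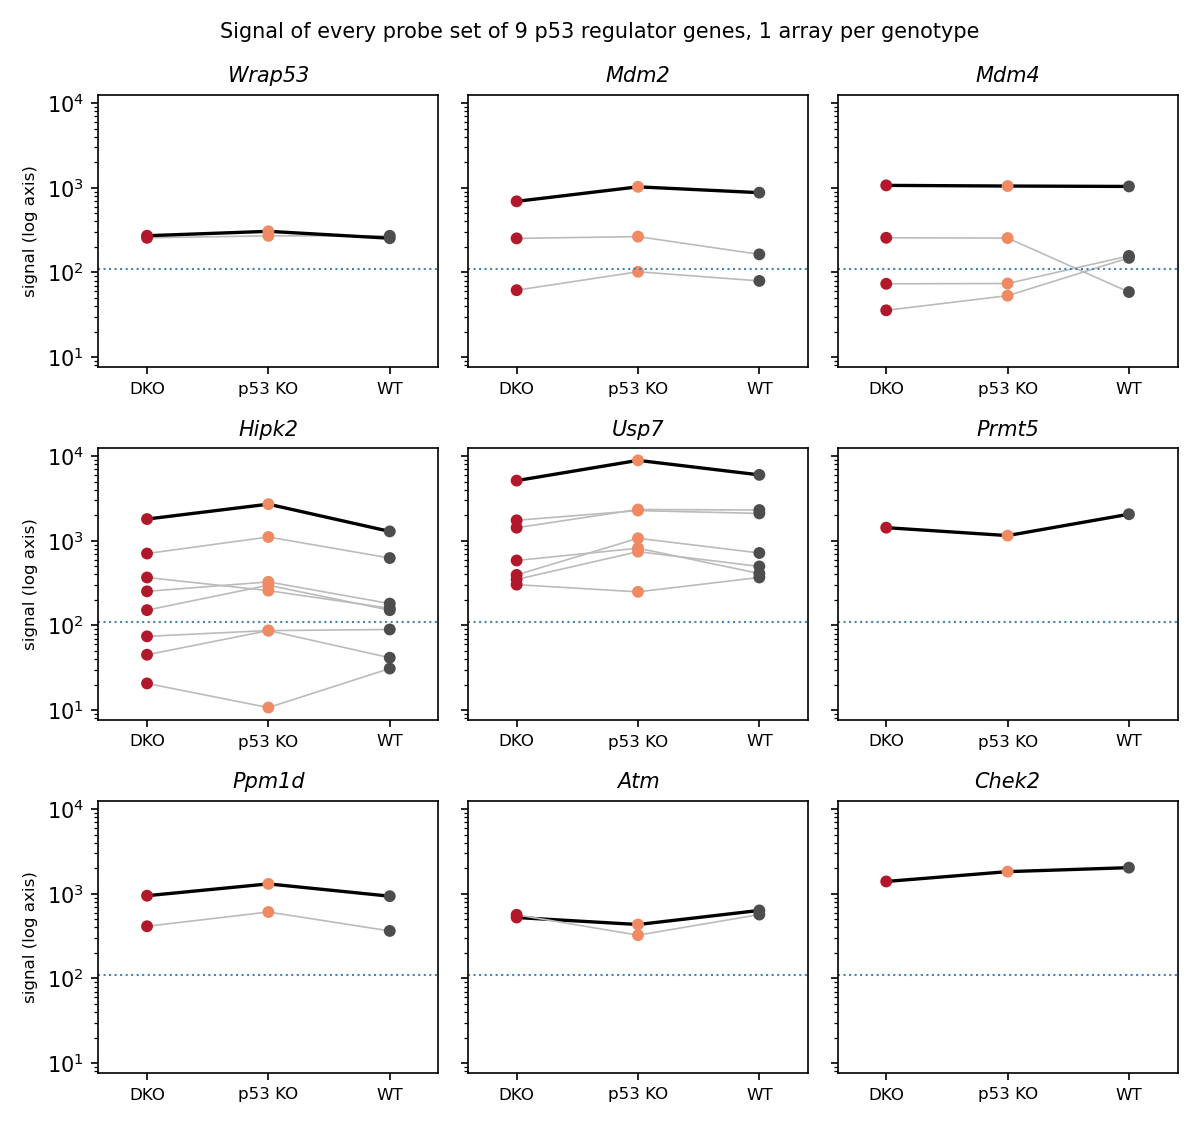
Signal (log axis) of each of the 30 probe sets on the DKO, p53 KO and WT arrays, in a panel for each gene. Each line is a probe set, the black line is the brightest by mean signal, which stood for the gene, and the dotted line is the floor of 110.4. The black lines of Hipk2, Usp7 and Ppm1d peak on p53 KO, while a Hipk2 line (369 on DKO) and a Usp7 line (250 on p53 KO) do not. Prmt5 and Atm dip there, and the Mdm4 lines cross.

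For a value per gene, the brightest probe set by mean signal was used, and a difference is in log2 units of floored signal. Of the 9 genes, 1 was at least 2-fold higher on p53 KO than on WT (Hipk2), beside 6.51% of the 12597 measured genes, and none was at least 2-fold lower, beside 3.19%. For DKO against WT 0 of 9 were past 2-fold higher, beside 5.22%, and 0 lower, beside 3.10%. For DKO against p53 KO the counts were 0 higher, beside 4.10%, and 0 lower, beside 5.93%. At these shares less than 1 gene of 9 would be past 2-fold in each direction, so the counts are near the background. Against WT the median difference over the 9 genes was 0.23 on p53 KO and -0.22 on DKO, and that of DKO against p53 KO was -0.39, where all measured genes had medians of 0, 0.07 and 0.11 in that order. Each pair of these comparisons shares an array.

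By probe set, 18 of the 26 were higher and 8 lower on p53 KO than on WT, where 45.2% and 45.0% of all measured probe sets were higher and lower. For DKO against p53 KO 7 were higher and 17 lower, where 60.7% and 37.1% of all were. On p53 KO 2 were past 2-fold higher than on WT (background 5.36%) and 0 lower (background 2.86%). On DKO 2 were past 2-fold higher than on WT (background 5.22%) and 0 lower (background 2.60%), and against p53 KO the DKO counts were 0 higher (background 4.38%) and 2 lower (background 4.81%). Those were Hipk2 and Mdm4 probe sets in the comparisons with WT, and Usp7 probe sets in the last. Of 7 genes with more than 1 measured probe set, all probe sets had the same sign for 4, 3 and 4 genes in the same order of comparisons. Ppm1d and Atm kept 1 sign in each comparison, while Usp7 was mixed in each and Mdm4 in both comparisons with WT.

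**Figure D2:**
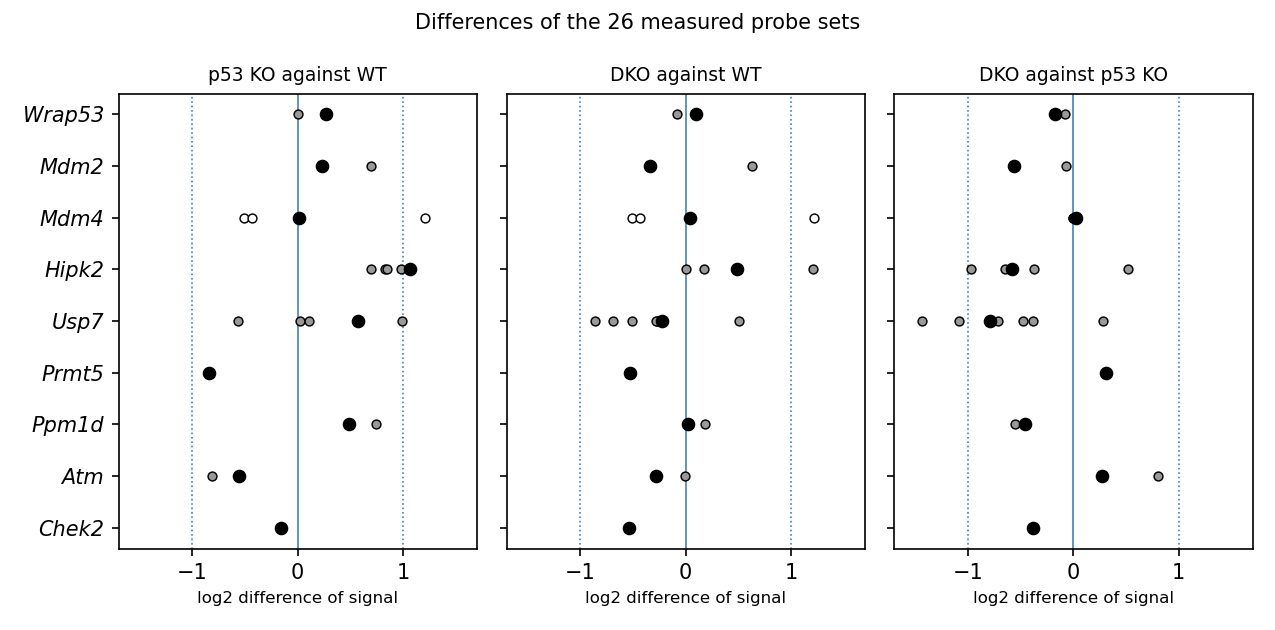
Log2 difference of signal for each of the 26 measured probe sets, in a panel for each of the 3 comparisons. Large black points are the probe sets that stood for the genes, grey points the others, and white points are bounds because 1 of the arrays was below the floor. Dotted lines mark 2-fold. All 5 Hipk2 points lie right of zero for p53 KO against WT, and 6 of 7 Usp7 points lie left of zero for DKO against p53 KO.

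The members' genes lie on different chromosomes except for Wrap53, Ppm1d and the p53 gene, which are all on mouse chromosome 11. RefSeq (GRCm38.p6) held 12 promoter windows for the 9 genes, each of 250 bases before and 50 after a gene start. Their GC content ran from 43% (Mdm4) to 86% (Usp7) with a median of 59%, against 52.7% over all 32851 windows. No window of the 12 held the full p53 response element, that is, a pair of decamers with up to 13 bases between them, which 24 of all windows hold (0.0731%). A single p53 decamer was found in 3 of the 12 windows, those of Mdm2, of Ppm1d and of the Wrap53 start that faces the p53 gene, and in 8.36% of all windows. The pattern searched for, though not each decamer found, reads the same on both strands. A match is a description of letters and not a bound site, and the p53-responsive promoter of Mdm2 is known to lie in its first intron, outside this window. The longest run of bases shared between windows of different genes among the 9, on either strand, was one of 20 bases in Mdm2 and the inner start of Wrap53, which no other of the 32851 windows held. Next came a run of 14 bases in that Wrap53 window and in Chek2, held by 76 windows in all (0.231%). The windows are shown because Wrap53 holds the same runs as Mdm2 and Chek2 and because Mdm2 and Ppm1d are feedback genes of p53. Capitals mark the shared runs in Mdm2 (chr10:117710709-117711008, minus strand), Wrap53 (chr11:69579200-69579499, minus strand) and Chek2 (chr5:110839733-110840032, plus strand), and the p53 decamer in Ppm1d (chr11:85311004-85311303, plus strand).
Mdm2: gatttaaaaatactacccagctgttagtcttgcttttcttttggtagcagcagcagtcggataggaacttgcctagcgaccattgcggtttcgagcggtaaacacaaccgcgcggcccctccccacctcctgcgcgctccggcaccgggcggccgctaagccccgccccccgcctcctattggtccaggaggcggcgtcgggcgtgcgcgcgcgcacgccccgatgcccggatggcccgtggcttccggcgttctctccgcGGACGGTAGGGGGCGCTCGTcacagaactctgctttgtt
Wrap53: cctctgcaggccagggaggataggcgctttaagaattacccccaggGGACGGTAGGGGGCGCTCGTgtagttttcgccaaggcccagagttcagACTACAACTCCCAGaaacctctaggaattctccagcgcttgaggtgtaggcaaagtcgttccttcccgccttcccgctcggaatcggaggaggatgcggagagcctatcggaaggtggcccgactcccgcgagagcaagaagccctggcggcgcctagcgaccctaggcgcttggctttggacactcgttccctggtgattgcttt
Chek2: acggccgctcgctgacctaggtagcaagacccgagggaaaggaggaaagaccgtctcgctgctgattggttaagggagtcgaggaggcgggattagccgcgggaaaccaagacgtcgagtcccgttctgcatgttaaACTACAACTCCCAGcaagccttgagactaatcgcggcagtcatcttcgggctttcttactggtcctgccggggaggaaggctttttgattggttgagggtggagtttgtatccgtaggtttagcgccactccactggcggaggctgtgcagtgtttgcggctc
Ppm1d: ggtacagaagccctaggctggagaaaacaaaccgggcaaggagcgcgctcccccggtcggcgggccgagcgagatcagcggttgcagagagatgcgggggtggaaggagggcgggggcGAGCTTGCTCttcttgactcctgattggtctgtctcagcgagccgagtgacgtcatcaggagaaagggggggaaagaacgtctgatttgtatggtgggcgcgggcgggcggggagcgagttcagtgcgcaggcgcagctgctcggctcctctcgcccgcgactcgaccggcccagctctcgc

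Wrap53, which starts next to the p53 gene on the opposite strand and encodes a protein that brings telomerase RNA to Cajal bodies, gave nearly level signals. Its brightest probe set had 272 on DKO, 306 on p53 KO and 254 on WT, and the other had 257, 271 and 271. The largest of its differences in the deposited signals was 0.27, for p53 KO against WT by the first probe set, where the second gave -0.0015. In those signals the transcript next door to the deleted gene was thus within 1.21-fold on all arrays. For DKO against p53 KO the gene was at -0.17 as deposited, -0.35 after quantile normalization and -0.37 after cyclic loess. In human cells an antisense form of Wrap53 is known to stabilise p53 mRNA, and these probe sets do not tell transcript forms apart here.

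Other genes beside the p53 gene were compared in gene order, up to 5 protein-coding genes on each side. Atp1b2, a sodium pump subunit on the other side of the p53 gene, had 227 on DKO, 170 on p53 KO and 3537 on WT by one probe set, but 137, 134 and 121 by the other. Kdm6b, a histone demethylase gene on the Wrap53 side, had 1023 on DKO, 1441 on p53 KO and 2141 on WT by its brightest probe set, and its 2 dimmer ones had no such order. Efnb3, an ephrin ligand next after Wrap53, had 249 on DKO, a signal below the floor on p53 KO (82.4) and 134 on WT. Dnah2, Shbg, Sat2, Fxr2, Tmem88 and Sox15 had signals of at most 199, that of Fxr2 on WT. Past 2-fold against WT were thus only single probe sets of Atp1b2 (-4.38 on p53 KO and -3.96 on DKO) and, on DKO, of Kdm6b (-1.07).

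**Figure D3:**
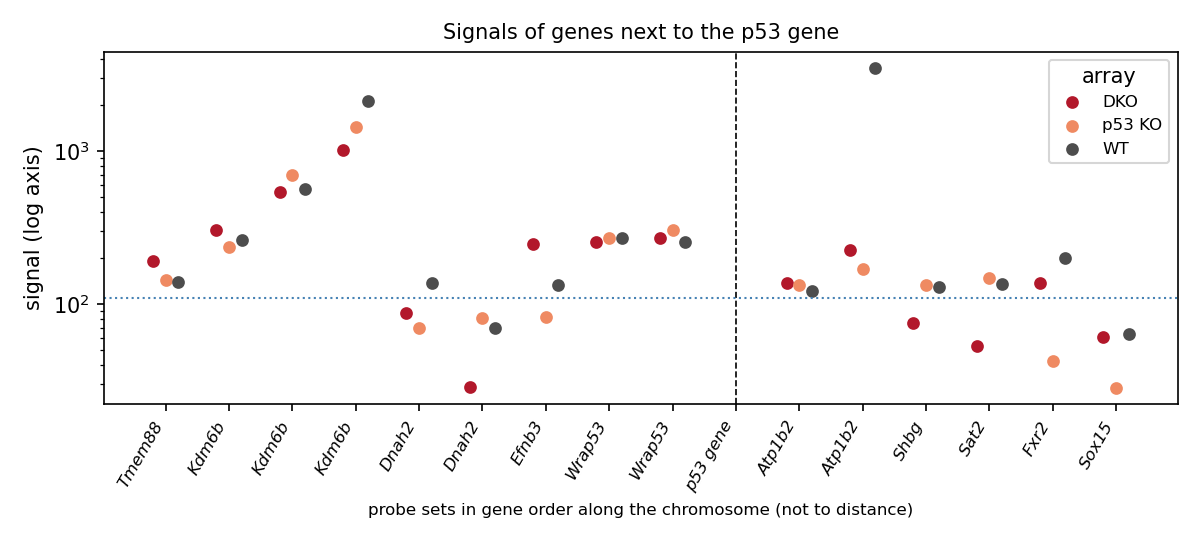
Signal (log axis) on the DKO, p53 KO and WT arrays of each probe set of up to 5 protein-coding genes on either side of the p53 gene, in gene order and not to distance. The dashed line marks the place of the p53 gene and the dotted line the floor of 110.4. Both Wrap53 probe sets lie between 254 and 306, while 1 of 2 Atp1b2 probe sets is at 3537 on WT alone.

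Mdm2, the ligase under direct p53 control, was not lower on p53 KO than on WT. Its brightest probe set had 692 on DKO, 1027 on p53 KO and 876 on WT, and a dimmer one had 253, 265 and 164. A further probe set was below the floor on each array, at 61.8, 102 and 79.4. Differences from WT by the measured pair were 0.23 and 0.70 on p53 KO. On DKO they parted in sign, at -0.34 and 0.63, so no direction of Mdm2 can be read there. Against p53 KO, DKO gave -0.57 and -0.07.

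Mdm4, the partner of Mdm2, looked different by each of its probe sets. The brightest, which matches more than 1 transcript by its name, had 1068 on DKO, 1049 on p53 KO and 1038 on WT, a spread of 0.04. One of the dim ones had 257 on DKO, 255 on p53 KO and 58.7 on WT, which is at least 1.22 and 1.21 higher than WT. The other 2 went the opposite way, with 73.5, 74.0 and 157 by one and 35.7, 53.2 and 149 by the other, so that only the WT array was over the floor. The DKO and p53 KO arrays were alike by every Mdm4 probe set that both measured, with differences up to 0.03.

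Usp7, the deubiquitinase, was lower on DKO than on p53 KO by 6 of its 7 probe sets. Its brightest probe set had 5142 on DKO, 8918 on p53 KO and 6010 on WT. The widest difference was by a dimmer probe set with 395 on DKO, 1071 on p53 KO and 718 on WT (-1.44 for DKO against p53 KO), followed by one with 350, 744 and 498 (-1.09). Over the 7 probe sets the difference of DKO against p53 KO was -0.66 ± 0.55 (SD over probe sets, which share their arrays), from -1.44 to 0.28. At the gene level it was -0.79, and 17.0% of measured genes differed by at least as much. Against WT, DKO was lower by 6 of 7 probe sets (-0.33 ± 0.44) and p53 KO higher by 6 of 7 (0.33 ± 0.51). The exception on p53 KO was a probe set with 303 on DKO, 250 on p53 KO and 369 on WT, although it comes from the same source sequence as the brightest probe set. The remaining 3 probe sets lay between 411 and 2344.

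Ppm1d, the phosphatase that p53 switches on, was likewise not lower on p53 KO. It had 950 on DKO, 1310 on p53 KO and 937 on WT by one probe set and 414, 609 and 364 by the other. Both put p53 KO above DKO and WT, with differences from WT of 0.48 and 0.74 on p53 KO and 0.02 and 0.18 on DKO. Against p53 KO, DKO gave -0.46 and -0.56.

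Hipk2 was the member with the largest difference at the gene level. Its brightest probe set had 1807 on DKO, 2709 on p53 KO and 1291 on WT, and the next had 707, 1109 and 626. The other 3 measured probe sets had 253, 369 and 152 on DKO, 327, 258 and 299 on p53 KO, and 181, 160 and 151 on WT. All 5 were higher on p53 KO than on WT, by 0.69 to 1.07 (mean 0.88 ± 0.15, SD over probe sets), and 8.23% of measured genes differed by at least the 1.07 of the brightest. The remaining 3 of its 8 probe sets were below the floor on every array. Against WT, DKO was higher by 0.0038 to 1.21 (mean 0.47 ± 0.46). For DKO against p53 KO 4 of 5 were lower, down to -0.98, and the fifth (369, 258 and 160) was higher by 0.52, so the order of the knockout arrays depends on the probe set.

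Hipk1, a paralogue of Hipk2 on the list of other p53 kinases, had 1313 on DKO, 3885 on p53 KO and 1892 on WT by its brightest probe set. All 3 of its probe sets were higher on p53 KO than on WT, by 0.90 to 1.09, and lower on DKO than on p53 KO, at -1.08 to -1.57, with 1 of the 3 a bound. Hipk3, the other relative measured, had 4622 on DKO, 4546 on p53 KO and 3453 on WT, a difference of 0.40 for p53 KO against WT. Among 7873 genes whose brightest signal reached the 75th percentile of all signals, the profiles over the 3 arrays nearest to that of Hipk2 by Euclidean distance of centred log2 signals were those of Nlrx1 (0.011), Map3k3 (0.014) and Fcmr (0.029). With only 3 arrays such likeness is common, and 38 genes lay within a distance of 0.1.

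Atm, the kinase activated by DNA breaks, was lowest on p53 KO by both probe sets. They had 525 and 565 on DKO, 434 and 324 on p53 KO, and 636 and 569 on WT. The differences from WT were -0.55 and -0.81 on p53 KO and -0.28 and -0.01 on DKO, and those of DKO from p53 KO were 0.28 and 0.80. No Atm value passed 2-fold, and 30.1% of measured genes differed between p53 KO and WT by at least the -0.55 of the brighter probe set.

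Chek2, the kinase downstream of Atm, ran in another order from Atm, with its lowest signal on DKO. Its only probe set had 1399 on DKO, 1827 on p53 KO and 2037 on WT. The differences from WT were -0.54 on DKO and -0.16 on p53 KO.

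Prmt5, the arginine methyltransferase, had the lowest value of the 9 genes for p53 KO against WT. Its only probe set had 1430 on DKO, 1153 on p53 KO and 2061 on WT. That is -0.84 for p53 KO against WT and -0.53 for DKO against WT, and 14.8% of measured genes differed between p53 KO and WT by at least as much. With a single probe set there is no other reading of Prmt5 or Chek2 on these arrays, and the Prmt5 probe set matches more than 1 transcript by its name.

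Other regulators and partners were read from 8 lists of 160 genes, of which 145 were measured. On p53 KO 2 of them were at least 2-fold higher than on WT (1.38%, beside 6.51% of all measured genes) and 6 lower (4.14%, beside 3.19%). On DKO 1 was that much higher than on WT (0.690%, beside 5.22%) and 1 lower (0.690%, beside 3.10%). Against p53 KO, 3 were at least 2-fold higher on DKO (2.07%, beside 4.10%) and 5 lower (3.45%, beside 5.93%). In 5 of these 6 counts the share was below that of all genes. The listed genes were brighter, however: 129 of the 145 reached the 75th percentile of all signals, beside 7874 of the 12597 measured genes. With the floor set there, 7, 0 and 3 of the 129 were past 2-fold in either direction, beside 8.27%, 5.52% and 7.92% of the 7874. The part of brightness in these shares was not tested. Median differences over the 145 genes were -0.13, -0.08 and 0.16 in that order of comparisons.

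Most genes on the lists of Mdm2 inhibitors, of Wrap53 partners and of Prmt5 partners were lower on p53 KO than on WT. Of 15 ribosomal and nucleolar proteins that restrain Mdm2, 13 were lower and 2 higher, with a median of -0.60, where 54.0% of the 7874 measured genes that reach the 75th percentile of signals were lower, with a median of -0.05. Past 2-fold lower were the ribosomal protein gene Rpl37 (3017 on DKO, 755 on p53 KO and 2480 on WT, -1.72), the nucleostemin gene Gnl3 (6955, 4568 and 9667, -1.08) and Rps27l (2001, 1541 and 3224, -1.06), which is itself a p53 target. Rpl37 had only 1 measured probe set, which by its name is not unique to a transcript. For DKO against WT 12 of the 15 were lower, with a median of -0.18, where 51.1% of those 7874 genes were, with a median of -0.01, and Rps27 was at -1.30 (122 on DKO, 274 on p53 KO and 300 on WT). For DKO against p53 KO 12 were higher, with a median of 0.31, Rpl37 the most, where 56.0% of the 7874 were higher, with a median of 0.08. The same shares stand beside the counts of the next lists.

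Of 15 Wrap53 partners in telomerase and Cajal bodies, 12 were lower on p53 KO than on WT, with a median of -0.64. Nolc1, a nucleolar and Cajal body chaperone, had 2515 on DKO, 1772 on p53 KO and 4091 on WT (-1.21). The ATPases Ruvbl1 and Ruvbl2, which help assemble telomerase, were at -1.15 and -1.05. On DKO 12 of 15 were lower than on WT too, with a median of -0.33 and with the pseudouridylation protein gene Nhp2 at -0.66. Tert, the telomerase reverse transcriptase, went against its list with 231 on DKO, 115 on p53 KO and 97.8 on WT, at least 1.06 for DKO against WT. Tert stayed near the floor on p53 KO and WT, and its value, like those of Rps27 and Cul9, is named because it was past 2-fold. For DKO against p53 KO 12 of 15 partners were higher (median 0.45), and Tinf2, a shelterin subunit, was at -1.06 by its brightest probe set and at 0.47 by its other.

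Of 14 Prmt5 partners, 13 were lower on p53 KO than on WT by their brightest probe set, with a median of -0.35 and none past 2-fold. The largest differences, of Prmt7 (-0.82) and Snrpd3 (-0.80), depended on the probe set. Their measured probe sets ran up to 0.42 and 0.61. Wdr77, the obligate partner of Prmt5 in its active complex, had 4382 on DKO, 2664 on p53 KO and 4437 on WT (-0.74), and its 3 probe sets ran from -0.74 to 0.09. On DKO 11 of 14 were lower than on WT, with a median of -0.30, and the splicing protein gene Lsm4, whose product Prmt5 methylates in human cells, was at -0.95. Riok1, an adaptor of Prmt5, was at -0.84 on DKO, but its 5 probe sets ran from -0.84 to 0.41.

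The lists of enzymes that act on p53 itself were close to zero. Medians for p53 KO against WT were -0.13 over 23 ubiquitin genes, 0.04 over 24 kinases and phosphatases, 0.01 over 21 acetylation and methylation enzymes and 0.09 over 17 genes of the Atm pathway at DNA breaks. None of these 4 lists had a gene at least 2-fold lower on p53 KO, and only Hipk1 was higher by that measure. Named by size, Usp10, a deubiquitinase of p53, was at -0.84, Smyd2, which methylates p53, at -0.96, and the acetyltransferase Kat2b at 0.90 (0.02 by its other probe set). The damage kinase Atr, the relative of Atm, had 1279 on DKO, 899 on p53 KO and 1540 on WT (-0.78), lower by all 3 of its probe sets.

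For DKO against WT the same 4 lists had medians of -0.05, 0.11, -0.02 and -0.10, with 0 genes past 2-fold. The cell cycle kinase Plk1 was at -0.90 there. The histone and p53 methyltransferase Kmt5a was at -0.90 too, but its 4 probe sets ran from -0.90 to 0. For DKO against p53 KO the kinase Aurka had 1103 on DKO, 2492 on p53 KO and 1614 on WT (-1.18), and Brca1 had 1298, 2503 and 1593 (-0.95). Cul9, a ligase scaffold that binds p53, was at 1.01 there, at 366 on DKO, 182 on p53 KO and 239 on WT.

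Among 18 p53 relatives and partner proteins, 11 were lower and 5 higher on p53 KO than on WT, with a median of -0.13. Trp53inp2, an autophagy gene, was below the floor on DKO (61.1) and WT (93.0) and at 475 on p53 KO, which is at least 2.10 higher than WT. Its relative Trp53inp1, a p53 target, had 3816 on DKO, 6541 on p53 KO and 3285 on WT (0.99), with 0.04 by its other probe set. On DKO 12 of 18 were higher than on WT, with a median of 0.21. Of the 7874 genes 48.8% were higher, and of all measured genes 55.9%. Trp63 (165 on DKO) and S100b (137 on DKO) count among the 12 but reached the floor on DKO alone. For such genes a higher DKO value was fixed by the floor. Trp53bp1, which marks DNA breaks, led with 9993 on DKO, 6256 on p53 KO and 5832 on WT (0.78). All 4 Trp53bp1 probe sets were higher, by 0.34 to 0.80. Parp1 had 8892 on DKO, 4566 on p53 KO and 6340 on WT, a difference of 0.96 for DKO against p53 KO, and its 4 probe sets ran from 0.10 to 0.96.

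**Figure D4:**
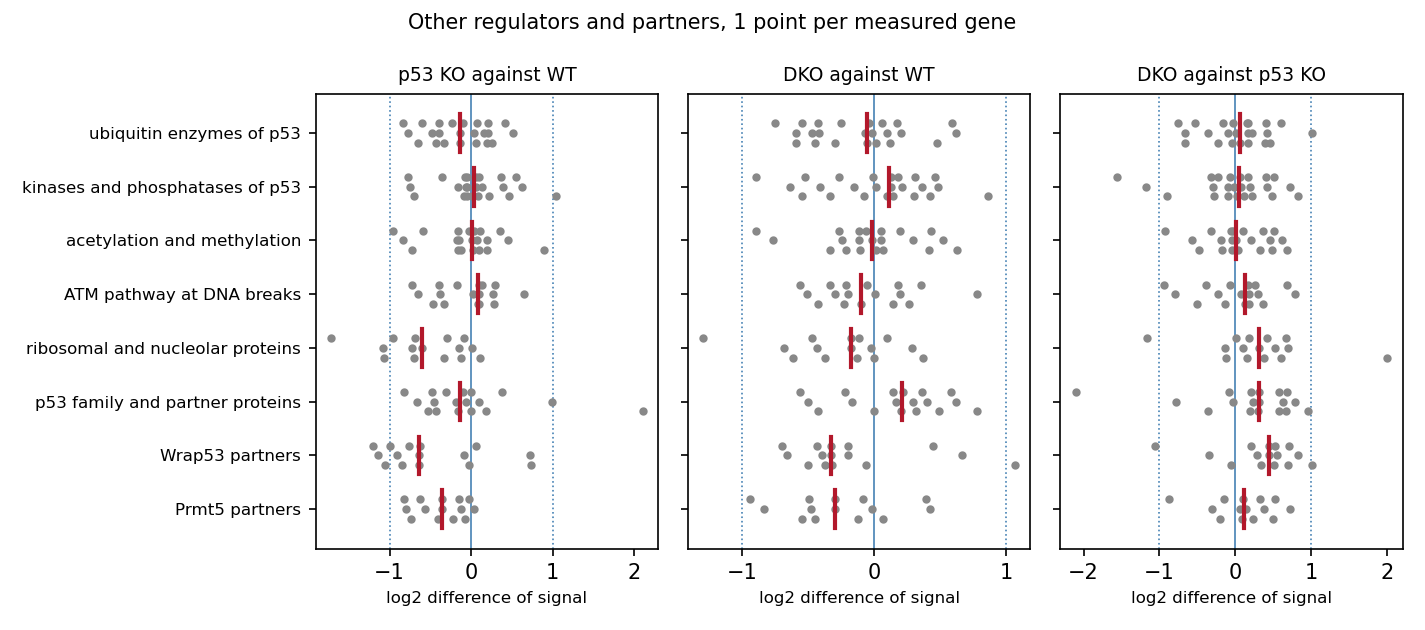
Log2 difference of signal for each measured gene of 8 lists of other p53 regulators and partners, in a panel for each of the 3 comparisons, with red bars at list medians and dotted lines at 2-fold. The medians of the Wrap53 partners (-0.64) and of the ribosomal and nucleolar proteins (-0.60) lie farthest left for p53 KO against WT.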

How the data were processed

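The deposited values are linear signal intensities, 1 column per array, and per the submitters' processing notes the authors used GCOS and MAS5, with no version stated there. The 2% trimmed mean was the same on each array, so the deposited intensities carry global scaling, and the authors' detection calls were not used here. Probe sets were named from the platform annotation, updated through the Entrez ID (RefSeq table, GRCm38.p6): 34958 carried 1 gene symbol, 932 several and 9211 none. A probe set with no name is unnamed here, not without a gene.

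Signals below the median of all signals (110.4) were set to it and log2 was taken. The brightest probe set by mean signal, among those with a single gene symbol, stood for its gene, and 12597 of 18194 genes reached the floor on at least 1 array. Where 1 array of a pair was below the floor the difference is a bound, written "at least". No test was possible on 1 array per genotype, and the number of arrays limits the precision. The text names every member, up to 3 genes of each list with the largest difference in each comparison among those at or over the 75th percentile (448.4) on some array, and up to 5 neighbours on each side of the p53 gene. Tert, Rps27, Cul9 and the Hipk relatives were named after their values were seen, as were the promoter motifs and shared runs. The members and lists were chosen with earlier results of these data known. Alternatives were rescaling, quantile normalization and cyclic loess with 3 iterations (limma 3.58.1 in R 4.3.3), floors at the 25th and 75th percentiles, a pseudocount of 32, other probe set rules, and fold thresholds of 1.5 and 3. The procedure (Python 3.11.15, pandas 2.3.3) was tested on simulated data with large changes put into bright genes only. Differences under 2-fold and dim probe sets were not covered by it.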

Additional observations from a re-analysis of the deposited data

How the results depend on the processing

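Median differences of the members kept their sign in each comparison under every rescaling, normalization, floor, pseudocount and probe set rule, except that the mean of all probe sets gave 0.01 for DKO against WT. Their size did not hold: with probe sets unique to a transcript (7 members) the median was 0.02 for p53 KO against WT and -0.08 for DKO against WT, where 0.23 and -0.22 were reported. With the floor at the 75th percentile (8 members) it was 0.12 for p53 KO against WT. Of 207 alternative values of single members, 198 moved by less than the median SD between probe sets of a gene (0.25 to 0.29) and 6 had the opposite sign. Among those 6 was Wrap53 for DKO against WT, at -0.16 after quantile normalization and -0.15 after cyclic loess, where 0.10 was reported. Those 198 include many values that could not move, among them all under rescaling and under the floor at the 25th percentile. The arrays already had equal trimmed means, and the brightest probe set of each member was over the floor on every array. Unique probe sets could not move Atm, Chek2, Hipk2 or Ppm1d, whose brightest probe set already was one. The mean could not move Chek2 or Prmt5, with 1 probe set each. The floor at the 75th percentile left every member measured there unchanged except Atm. The only member value past 2-fold as reported, that of Hipk2 for p53 KO against WT, kept its sign. It could not do otherwise by choice of probe set, since every measured Hipk2 probe set was higher there. The choice of probe set moved members most: Mdm4 was at least 1.21 (p53 KO) and 1.22 (DKO) against WT with unique probe sets, and Usp7 was 0.02 (p53 KO) and -0.69 (DKO) against WT with them, where 0.57 and -0.22 were reported. Hipk2 for p53 KO against WT was 0.55 with the mean of all 8 probe sets. The 3 Hipk2 probe sets below the floor on every array enter that mean as no difference and lower it by construction. The share of all genes past the same threshold under the same setting stands in brackets here. Members past 2-fold for p53 KO against WT were 1 of 9 as reported (9.70%), 0 with that mean (6.04%), 2 of 7 with unique probe sets (9.60%), 2 at 1.5-fold (27.8%) and 0 at 3-fold (2.33%). For DKO against WT unique probe sets gave 1 of 7 (7.93%), and for DKO against p53 KO 1.5-fold gave 1 of 9 (29.1%), where 0 were reported. Of the 145 other regulators, p53 KO against WT gave 45 at 1.5-fold (27.8%), 8 higher and 37 lower, and 2 at 3-fold (2.33%), where 8 were reported (9.70%). DKO against WT gave 22 at 1.5-fold (26.6%), 0 at 3-fold (1.6%), 1 each with cyclic loess (7.33%), quantile normalization (7.46%) and the mean of all probe sets (4.58%), 6 of 150 and 0 of 129 with the floor at the 25th (15.9%) and 75th (5.52%) percentiles, and 4 with a pseudocount (10.8%), where 2 were reported (8.31%). DKO against p53 KO gave 35 at 1.5-fold (29.1%), 2 at 3-fold (2.92%), 3 of 129 with the floor at the 75th percentile (7.92%) and 5 with the mean (5.97%), where 8 were reported. Fewer genes pass a stricter threshold by construction, and otherwise the cause was not tested. The median of all genes for DKO against p53 KO was 0.11 as deposited, 0.05 after quantile normalization and 0.01 after cyclic loess. No paired analysis was possible because each genotype has 1 array. Signals near the floor limit what can be read from the dim probe sets of Mdm4 and Hipk2.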
